A study of Mus musculus with 52 samples.

Results

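Liver of male mice that lack the Tug1 locus on both chromosomes (Tug1-/-) was compared with liver of wild-type males. The liver comparison was taken as all rows labelled liver in the deposited table of tissues, and 6 of the 52 samples of the series stood behind it, 3 wild-type and 3 Tug1-/- livers. All of these mice were of a mixed C57BL/6J and 129S6 background, at the N3 stage of crossing to C57BL/6J, and carried no Neo cassette. In the knockout allele, Tug1_tm1.1Vlcg, a lacZ reporter stood in place of the Tug1 gene body downstream of its own promoter and the first exon, so the promoter itself stayed in place in every Tug1-/- liver. The study describes the sequenced tissues as adult, and the exact age of these mice was not given in the sources used here. Polyadenylated RNA from snap-frozen tissue was sequenced.

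The expression levels in the table were the authors' mean of each genotype for every gene, in TPM (a share of all transcripts that takes the length of each gene into account), with no value of a single liver. The table also held the authors' own comparison of the genotypes, with standard errors and p-values, which was not used here. All levels below are those authors' means. A spread between livers could not be computed from the means, no difference was tested here, and a change carried by 1 liver cannot be told apart from a change in all 3. Changes are given as the log2 ratio of Tug1-/- over wild type after 1 TPM was added to both means, which understates the change of weakly expressed genes. Of 20198 genes listed for liver, 12121 reached a mean of 1 TPM in wild-type or in Tug1-/- liver, and these were the genes counted. A ratio past 1.5-fold was the limit for calling a gene higher or lower. Depth per library was unknown, but the mean normalised read counts per gene summed to 44130150.

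Tug1 is a long noncoding RNA gene that is read in the opposite direction from its protein-coding neighbour Morc2a. The liver makes and releases glucose, synthesises cholesterol and bile acids, clears ammonia and foreign compounds, and secretes most plasma proteins. Hepatocytes divide this work along the lobule: periportal cells favour gluconeogenesis and urea synthesis, and pericentral cells favour glutamine synthesis and cytochrome P450 reactions. Glucocorticoids, insulin, growth hormone and feeding each shift large sets of liver genes.

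The tissue label was borne out by its defining transcripts. Alb, which encodes serum albumin, was the most abundant transcript, with 97035 TPM in wild-type liver and 102474 TPM in Tug1-/- liver. It was followed by mt-Co1 (37659 and 34447 TPM), Apoa2 (26949 and 23879.7 TPM), mt-Cytb (20868 and 19058 TPM) and Mup3 (19725 and 16103 TPM). All 11 hepatocyte markers listed lay within 1.5-fold. Their log2 ratios ran from -0.15 to 0.29 with a median of 0.08. Among them, Hnf4a, a transcription factor that sets hepatocyte identity, had 354 TPM in wild-type liver and 434 TPM in Tug1-/- liver, and Cebpa had 312 and 281 TPM.

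Tug1 RNA was nearly absent from the livers labelled Tug1-/-. The wild-type mean was 10.1 TPM and the Tug1-/- mean 0.00832 TPM, so 0.0825% of the wild-type mean was left, and its log2 ratio was -3.46. The gene lies on chromosome 11 at 3639785 to 3649673 on the minus strand of GRCm38 (mm10).

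In all, 251 genes (2.07%) were higher in Tug1-/- liver past 1.5-fold and 178 (1.47%) were lower. Past 2-fold there were 59 higher and 37 lower genes. The median log2 ratio of all genes counted was 0.009, and the central 95% of genes lay between -0.47 and 0.54. That range changed little with expression level, from -0.50 to 0.55 at 1 to 10 TPM and from -0.50 to 0.58 at 100 TPM or more. Of the higher genes, 56 were under 1 TPM in wild-type liver and were counted only through their Tug1-/- mean, and 41 of the lower genes were under 1 TPM in Tug1-/- liver. A ratio above 0, of any size, was found for 52.7% of all genes. The mean normalised count was below 50 reads for 60 of the higher and 52 of the lower genes.

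**Figure D1:**
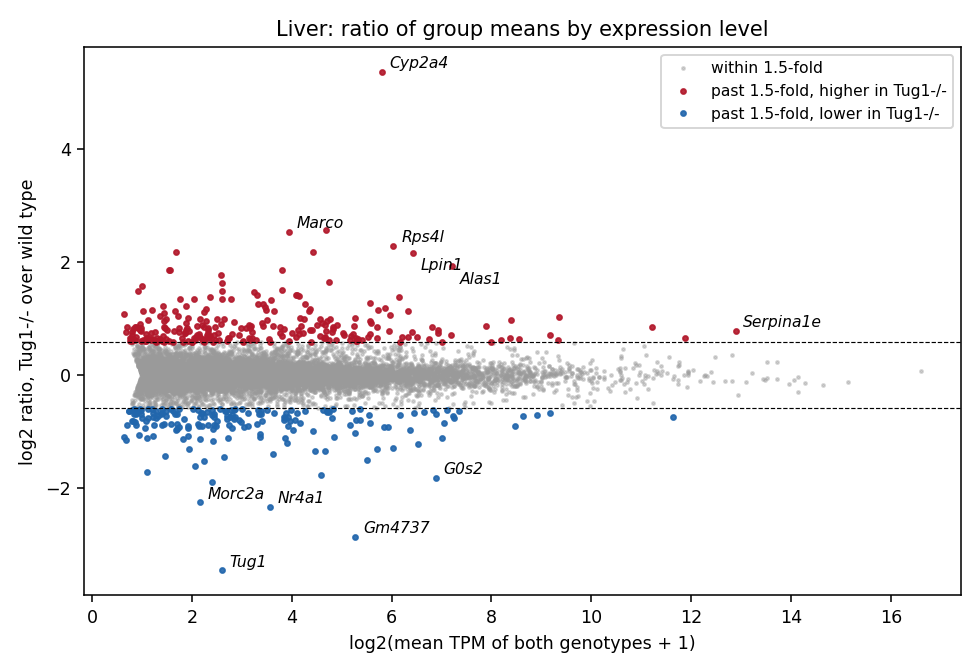
Each point is 1 of the 12121 genes counted. The horizontal axis is the log2 of the mean TPM of both genotypes plus 1, the vertical axis is the log2 ratio of Tug1-/- over wild-type group means, and the dashed lines mark 1.5-fold. Most genes lie between the lines at every level, Cyp2a4 stands apart at the top with 5.37, and Tug1 is the lowest point at -3.46.

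The 15 genes with the largest ratios, among genes of at least 2 TPM, included enzymes of steroid, lipid and heme metabolism. Cyp2a4, a steroid hydroxylase that is more abundant in female than in male mouse liver, had 1.64 TPM in wild-type liver and 108 TPM in Tug1-/- liver (log2 ratio 5.37). It has close relatives on chromosome 7, so reads may be divided among them. Of these, Cyp2a5 had 899.7 and 783 TPM (-0.20), Cyp2a12 had 455 and 422 TPM (-0.11) and Cyp2a22 had 2.52 and 0.920 TPM (-0.87). Cyp17a1, which makes androgen precursors, had 6.75 and 34.2 TPM (2.18). Lpin1, a phosphatidate phosphatase that also serves as a transcriptional coactivator, had 30.2 and 139.8 TPM (2.17). The related Lpin2 had 83.6 and 124 TPM (0.56) and Lpin3 had 3.41 and 2.92 TPM (-0.17). Alas1, the rate-limiting enzyme of heme synthesis, had 60.8 and 234 TPM (1.93), while the erythroid form Alas2 had 151 TPM in both. Lpin1 and Alas1 were the most deeply covered of these 15 genes, with mean normalised counts of 14796 and 16349 reads.

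The remaining genes at the top included secreted factors, stress genes and 1 macrophage receptor. Fgf21, a fasting hormone of the liver, had 1.71 TPM in wild-type liver and 8.29 TPM in Tug1-/- liver (log2 ratio 1.78). Ddit4, an inhibitor of mTOR signalling, had 5.06 and 20.9 TPM (1.86), and Gadd45g, a growth arrest gene, had 12 and 39.7 TPM (1.65). Pfkfb3, which drives glycolysis by making its activator fructose bisphosphate, had 6.24 and 19.6 TPM (1.51). Tff3, a secreted trefoil peptide, had 6.45 and 43.3 TPM (2.57). Marco, a scavenger receptor of macrophages, had 3.56 and 25.3 TPM (2.53), and the B cell chemokine Cxcl13 had 1.97 and 8.15 TPM (1.63). Rps4l, a ribosomal protein gene that the annotation lists as a transcribed processed pseudogene, had 21.4 and 108 TPM (2.29). Its parent Rps4x had 333 and 371 TPM (0.15), and reads shared by the pair may be divided between them. Cox6b2, Map10 and the noncoding CT010575.2 were below 0.3 TPM in wild-type liver and had 3.65, 3.60 and 4.25 TPM in Tug1-/- liver, from mean normalised counts of 39.1, 122 and 19.5 reads.

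The 15 smallest ratios, Tug1 and Morc2a aside, included genes of fat storage and lipid metabolism, a nuclear receptor and a cytochrome P450. G0s2, an inhibitor of the lipase that breaks down stored triglyceride, had 183 TPM in wild-type liver and 51.0 TPM in Tug1-/- liver (log2 ratio -1.82). Fitm1, which helps to form lipid droplets, had 65.9 and 22.6 TPM (-1.50). Vnn1, a pantetheinase, had 35.9 and 9.87 TPM (-1.76), and the acyl-CoA thioesterase Acot3 had 16.9 and 5.78 TPM (-1.40). Inhbe, a hepatocyte gene of the activin family, had 30.6 and 11.4 TPM (-1.35).

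Nr4a1, an inducible nuclear receptor, had 18.7 TPM in wild-type liver and 2.90 TPM in Tug1-/- liver (log2 ratio -2.33). The cytochrome P450 gene Cyp2b9 had 7.32 and 1.25 TPM (-1.88). After Tug1, the smallest ratio was that of the predicted coding gene Gm4737 on chromosome 16, with 66.9 and 8.31 TPM (-2.87). Gpc1, a cell-surface proteoglycan, had 5.99 and 1.42 TPM (-1.53), Clstn3 had 8.09 and 2.34 TPM (-1.44), and the exonuclease gene Pnldc1 had 5.33 and 1.07 TPM (-1.61). The last 2 of the 15 rested on few reads: the pseudogene Gm12991 (2.29 TPM in wild-type liver and listed at 0 in Tug1-/-) had a mean normalised count of 1.62 reads, and the small nuclear RNA gene Gm26203 (3.03 and 0.500 TPM) one of 3.64 reads.

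**Figure D2:**
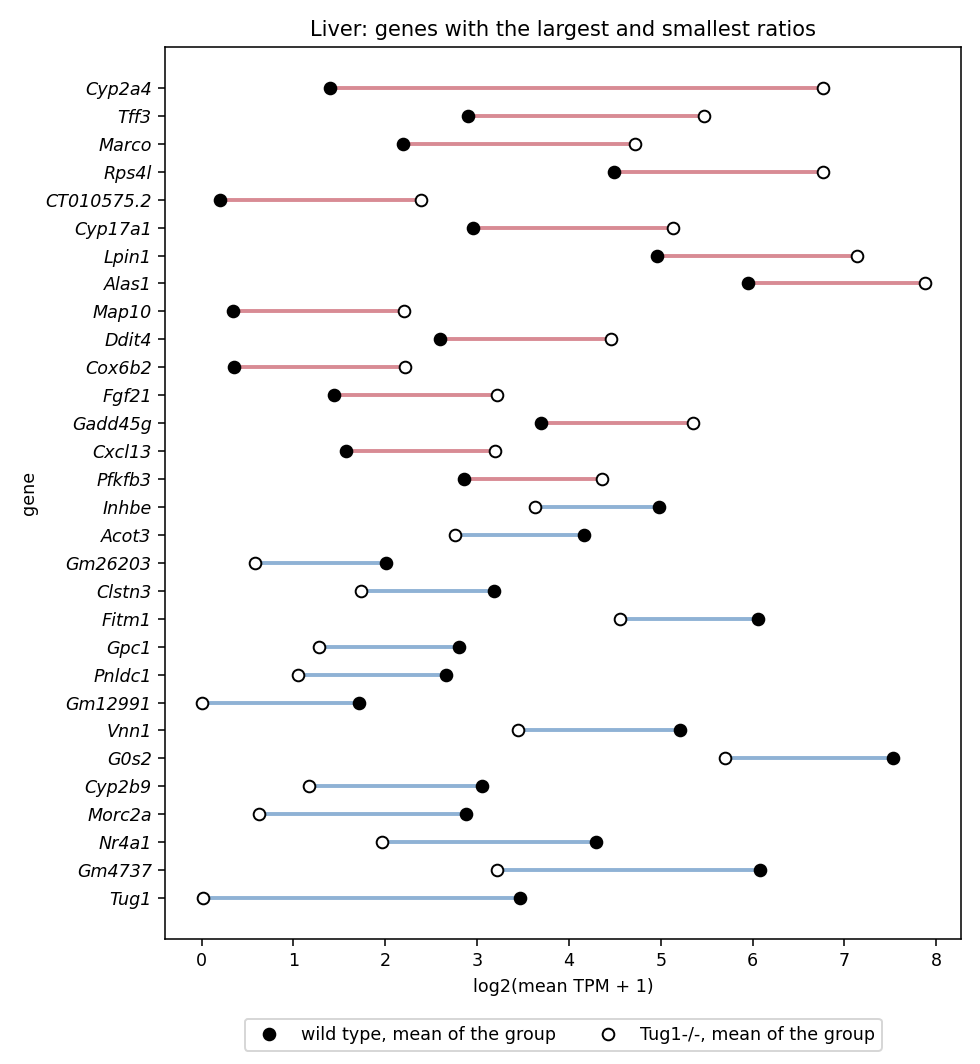
Each row is 1 gene, and the horizontal axis is the log2 of the group mean TPM plus 1. Filled points are the wild-type mean, open points the Tug1-/- mean, red bars join genes higher and blue bars genes lower in Tug1-/- liver. The longest bar is that of Cyp2a4, and Lpin1 and Alas1 reach high levels from an already high wild-type mean.

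A further question of the study was whether genes around Tug1 change when the locus is removed. Within 1 Mb of the Tug1 start, 42 other genes were listed for liver and 26 of them passed the filter of 1 TPM. Of these 26, 2 (7.69%) were higher and 1 (3.85%) was lower past 1.5-fold, beside 2.07% and 1.47% of all genes. Rnf185, a ubiquitin ligase gene whose start lies 197 kb from that of Tug1 at lower coordinates, had 24.5 TPM in wild-type liver and 50.6 TPM in Tug1-/- liver (log2 ratio 1.02). Selenom, a selenoprotein gene 135 kb away on the same side, had 2.25 and 4.32 TPM (0.71). Selenom was within 1.5-fold with a pseudocount of 5 TPM (0.36) and fell out at a filter of 5 TPM or a limit of 2-fold, which left 1 higher gene. Smtn, closer still at 109 kb, had 2.40 and 2.84 TPM (0.17).

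Morc2a, which encodes a chromatin-silencing ATPase, had 6.36 TPM in wild-type liver and 0.541 TPM in Tug1-/- liver (log2 ratio -2.26). Its gene model begins 0.179 kb from the Tug1 start and shares 180 bases with that of Tug1, so part of the reads of 1 gene may be counted for the other. The library kit does not mark strand, and the 2 genes cannot be separated over those bases. The other 23 genes of the window that passed the filter had absolute log2 ratios of at most 0.40. Under the filter, Osbp2 had 0.722 and 0.0733 TPM (-0.68). Morc2a aside, all 10 genes at lower coordinates than Tug1 had a ratio above 0, and 6 of 15 at higher coordinates did, beside 52.7% of all genes.

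**Figure D3:**
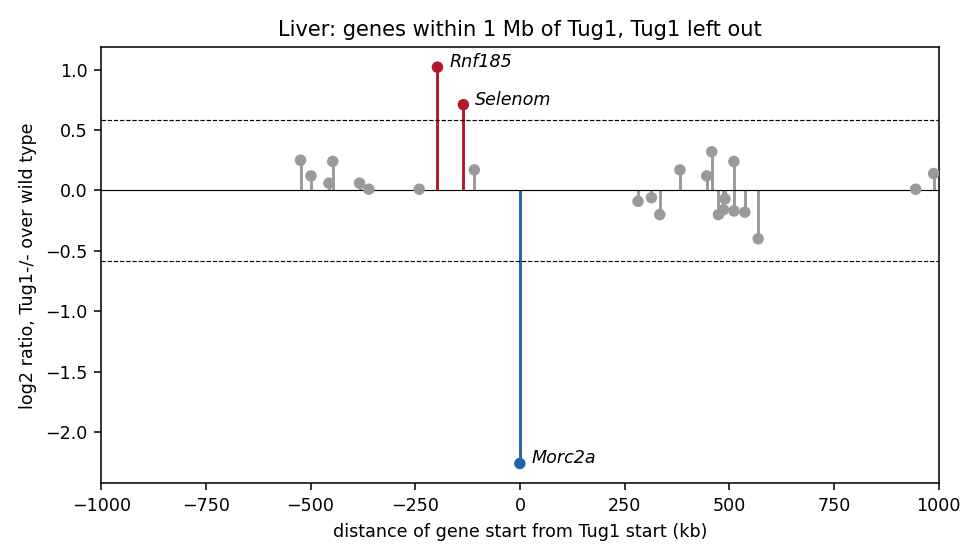
Each point is 1 of the 26 genes within 1 Mb of Tug1 that passed the filter, placed by the distance of its start from the Tug1 start in kb. The vertical axis is the log2 ratio of Tug1-/- over wild-type group means and the dashed lines mark 1.5-fold. Rnf185 and Selenom stand above the upper line on the side of lower coordinates, and Morc2a stands at -2.26 beside the Tug1 start.

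Genes that glucocorticoids induce stood higher as a group. Of 14 counted, 13 had a ratio above 0 and 8 (57.1%) were higher past 1.5-fold, beside 2.07% of all genes, and none was lower. Their median log2 ratio was 0.73 against 0.009 for all genes. Zbtb16, a transcriptional repressor, had 2.20 TPM in wild-type liver and 8.02 TPM in Tug1-/- liver (log2 ratio 1.49). The metallothionein genes Mt2 (4.04 and 13.0 TPM) and Mt1 (26.8 and 66.6 TPM) had ratios of 1.47 and 1.28. Ddit4 is a member too. The other 4 genes past the limit, named after their values were seen, were Fkbp5 (6.78 and 16.1 TPM), a co-chaperone of the glucocorticoid receptor, Tsc22d3 (48.8 and 109 TPM), Tat (1681 and 3038 TPM) and Lcn2 (1.32 and 2.54 TPM). Dusp1, which dampens MAP kinase signalling, was the exception with 40.1 and 27.1 TPM (-0.55).

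Heat shock genes, most of them cytosolic chaperones that refold damaged proteins, lay above 0 with smaller ratios. The list also holds the heat shock transcription factor gene Hsf1, the mitochondrial Hspd1 and Hspe1 and the collagen chaperone Serpinh1. All 23 had a ratio above 0, with a median log2 ratio of 0.35, and 7 (30.4%) were higher past 1.5-fold, beside 2.07% of all genes. Hspa1a among them passed the filter only through its Tug1-/- mean, which leaves 6. Hspa1b had 4.38 TPM in wild-type liver and 13.4 TPM in Tug1-/- liver (log2 ratio 1.43), and its near-identical copy Hspa1a had 0.290 and 1.21 TPM (0.77), so reads of these 2 genes cannot be firmly assigned. Hsph1, a nucleotide exchange factor for Hsp70 chaperones, had 10.3 and 26.0 TPM (1.26), and the co-chaperone Dnajb1 had 17 and 28.2 TPM (0.70). The constitutive Hspa8, far more abundant, had 290.4 and 453 TPM (0.64).

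Endoplasmic reticulum stress genes, which include chaperones, folding enzymes, degradation genes and transcription factors, also lay mostly above 0. Of 22 counted, 20 had a ratio above 0, the median log2 ratio was 0.20 and 3 (13.6%) were higher past 1.5-fold, beside 2.07% of all genes. Creld2 had 25.8 TPM in wild-type liver and 48.0 TPM in Tug1-/- liver (log2 ratio 0.87), Herpud1, which acts in the degradation of misfolded proteins, had 437 and 718 TPM (0.72), and Manf had 26.8 and 43.7 TPM (0.69). The master chaperone Hspa5 had 292 and 408 TPM (0.48). Of 13 genes of the amino acid response, 4 (30.8%) were higher and 1 (7.69%) was lower past 1.5-fold, beside 2.07% and 1.47% of all genes, with a median of 0.01. Chac1 (1.97 and 5.49 TPM), Ddit4 and Fgf21 were among the higher genes, and Trib3 (17.2 and 9.47 TPM) was the lower one. Ddit4 was also counted with the glucocorticoid-induced genes, and Fgf21 with the targets of PPAR alpha described below. Another 7 of the 20 genes listed were under the filter.

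Promoter sequence is shown for these 2 stress gene groups because a well-known stress element exists for each. In RefSeq promoter windows (250 bases before to 50 after a gene start, GRCm38.p6), 19 of the 23 heat shock genes and 19 of the 22 endoplasmic reticulum genes had a window. The heat shock element was searched as GAANNTTCNNGAA and the endoplasmic reticulum stress element as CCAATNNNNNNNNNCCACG, on both strands. The heat shock element was present in 0.603% of all 32851 windows and in those of Chordc1, Hspd1, Hspe1 and Hsph1. The stress element was present in 0.119% of all windows and in those of 8 listed genes. The stretches below read along the strand of the gene with the match in capitals, and Creld2 carries it as the reverse complement. They lie at chr1:55088051-55088079 (minus strand) for Hspd1, chr1:55088056-55088084 (plus strand) for Hspe1, chr15:88819515-88819543 (plus strand) for Creld2, chr2:34772020-34772048 (plus strand) for Hspa5 and chr11:50325795-50325823 (minus strand) for Canx.
Hspd1: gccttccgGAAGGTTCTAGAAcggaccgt
Hspe1: ccgttctaGAACCTTCCGGAAggccccgc
Creld2: cttctCGTGGCGAGCCTCAATTGGtccac
Hspa5: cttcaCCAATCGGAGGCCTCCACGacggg
Canx: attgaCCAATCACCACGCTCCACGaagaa

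Hspd1 and Hspe1, which encode the mitochondrial chaperonin and its partner, are transcribed away from each other, and their stretches overlap on opposite strands. Both had a log2 ratio of 0.18. In Hsph1 and Chordc1 (10.5 and 15.7 TPM, 0.54) no match lay wholly before the gene start, and none is printed. Among the 8 genes with the endoplasmic reticulum element the log2 ratio ran from 0.06 for Canx and Pdia6 to 0.87 for Creld2. A match of letters thus accompanied small and larger ratios alike, and it was not tested whether any of these elements was used.

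**Figure D4:**
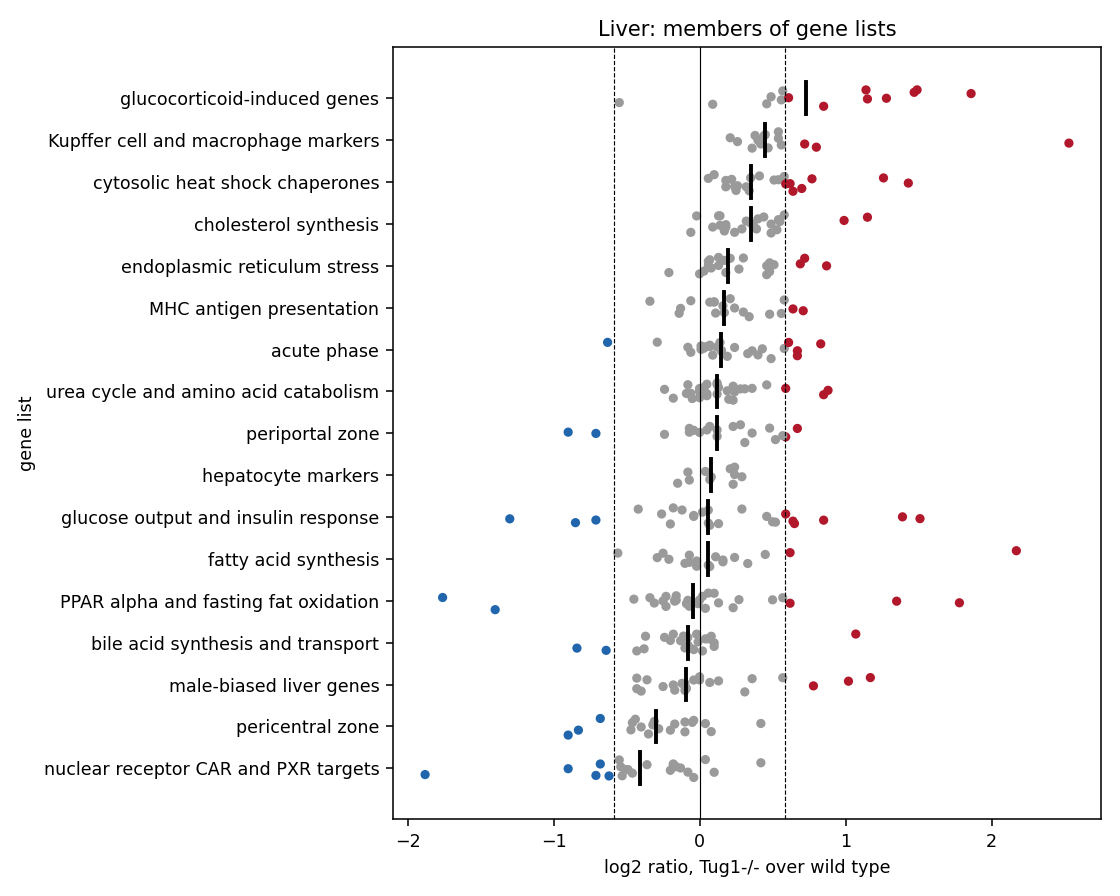
Each point is 1 gene of the list named at the left, the horizontal axis is the log2 ratio of Tug1-/- over wild-type group means, black bars are list medians and dashed lines mark 1.5-fold. Red points are past the limit upward and blue points downward. Glucocorticoid-induced genes have the highest median (0.73) and targets of the receptors CAR and PXR the lowest (-0.41) of the 17 lists drawn.

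Cholesterol synthesis genes mostly had ratios above 0, though few passed the limit. Of 25 counted, 23 had a ratio above 0, with a median log2 ratio of 0.35, and 2 (8.0%) were higher past 1.5-fold, beside 2.07% of all genes. Sqle, which oxidises squalene, was past the limit with 14.9 TPM in wild-type liver and 30.6 TPM in Tug1-/- liver (log2 ratio 0.99). Of 19 genes listed under fatty acid synthesis, 10 had a ratio above 0, the median was 0.06, and 2 (10.5%) were higher past the limit. These were the phosphatidate phosphatase gene Lpin1 and the desaturase gene Fads2 (504 and 777 TPM, 0.62). The synthesis enzyme genes Fasn (0.16), Acaca (0.11) and Scd1 (-0.02) lay within it. Of 20 apolipoprotein and lipoprotein genes, none was past the limit and the median was -0.01.

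Genes of bile acid synthesis and transport gave a median log2 ratio of -0.08 over 25 genes. Cyp7a1, the rate-limiting enzyme of bile acid synthesis, had 39.2 TPM in wild-type liver and 83.3 TPM in Tug1-/- liver (log2 ratio 1.07). Nr0b2, a nuclear receptor that represses Cyp7a1, had 59.9 and 33.0 TPM (-0.84). Cyp8b1, which directs synthesis toward cholic acid, had 196 and 126 TPM (-0.64). These were the only members past 1.5-fold, 1 higher (4%) and 2 lower (8%), beside 2.07% and 1.47% of all genes.

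Genes of glucose output and insulin response were split. Of 25, 6 (24%) were higher and 3 (12%) were lower past 1.5-fold, beside 2.07% and 1.47% of all genes, and the median was 0.06. Pfkfb3 and Igfbp1, which encodes a binding protein for insulin-like growth factors (38.2 and 101 TPM, log2 ratio 1.39), were highest. Ppp1r3c, a glycogen-targeting subunit of protein phosphatase, had 91.8 and 36.8 TPM (-1.30), and the kinase gene Sik1 had 22 and 11.7 TPM (-0.85). The last step of glucose release also stood lower, with G6pc at 595 and 364 TPM (-0.71).

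Amino acid catabolism and the urea cycle had a median log2 ratio of 0.12 over 30 genes, with 22 above 0. Past 1.5-fold were the transaminase Got1 (166 and 306 TPM, 0.88), the tyrosine aminotransferase Tat (0.85), which is also a glucocorticoid-induced gene, and the serine dehydratase Sds (201 and 304 TPM, 0.59). Targets of PPAR alpha, the receptor that turns on fat oxidation in fasting, had a median of -0.05 over 30 genes. Fgf21, Cyp4a31 (2.90 and 8.92 TPM) and Plin5 (27.3 and 42.5 TPM) were higher past the limit and Vnn1 and Acot3 were lower, so members of this list moved both ways. The 2 genes of iron handling past the limit were the hormone hepcidin, Hamp (2907 and 4616 TPM, 0.67), and Id1 (18.4 and 29.5 TPM, 0.66), of 13 counted. The share of all genes past the limit, to set beside these 3 groups, was 2.07% higher and 1.47% lower.

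Targets of CAR and PXR, the nuclear receptors that sense foreign compounds, mostly had ratios below 0. Of 22 counted, 19 had a ratio below 0, with a median log2 ratio of -0.41, 5 (22.7%) were lower past 1.5-fold, beside 1.47% of all genes, and none was higher. After Cyp2b9 came Cyp2c37 (462 TPM in wild-type liver and 247 TPM in Tug1-/- liver, log2 ratio -0.90), Cyp2c54 (492 and 299.8 TPM, -0.71) and Cyp2c50 (707 and 442 TPM, -0.68). These Cyp2c genes are close relatives, so the split of reads among them is uncertain. Their relative Cyp2c39, which is not on the list and was named after its values were seen, had 31.4 and 62.1 TPM (0.96). The transporter gene Abcc3 (137 and 88.4 TPM, -0.62) was the fifth.

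Pericentral genes, which share 3 members with that list, gave a median of -0.30, with 17 of 20 below 0 and 3 (15%) lower past 1.5-fold, beside 1.47% of all genes. They were Cyp2c37, Cyp2c50 and Tbx3, a transcription factor of pericentral hepatocytes (9.15 and 4.69 TPM, -0.83). The classic pericentral enzymes moved less: Cyp2e1 had 8751 and 6857 TPM (-0.35), Glul had 625 and 554 TPM (-0.17) and Cyp1a2 had 726 and 707 TPM (-0.04). Periportal genes gave a median of 0.12, with 13 of 20 above 0, 2 higher (Aldh1b1 and Sds) and 2 lower (Sult5a1 and G6pc) past the limit, beside 2.07% and 1.47% of all genes. In whole tissue, fewer cells of a kind cannot be told apart from less RNA per cell.

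Genes that differ between male and female mouse liver did not move together. Only 8 of the 19 female-biased genes listed passed the filter in these male livers, and 3 of them were higher (Cyp2a4, Cyp17a1 and the peroxisomal transporter Abcd2, with 11.7 and 27.1 TPM) and 2 lower (Cyp2b9 and Acot3). Of 23 male-biased genes, 3 were higher past 1.5-fold and none was lower, and the median log2 ratio was -0.09. Of all genes, 2.07% were higher and 1.47% lower. The 3 were Gstp2 (11.6 and 27.4 TPM, 1.17), Mup21 (428 and 872 TPM, 1.02) and the antitrypsin gene Serpina1e (5585 and 9572 TPM, 0.78). Each belongs to a family of near copies, and the female-biased Cyp2a4 has close relatives too, so reads may be divided among them. Cyp4a12a and Elovl3, male-biased genes, had 175 and 169 TPM and 179.9 and 167 TPM.

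Markers of Kupffer cells and other macrophages had ratios above 0, most of them within 1.5-fold. Of 18 listed, 16 passed the filter and all 16 had a ratio above 0, with a median log2 ratio of 0.45, and their summed level was 596 TPM in wild-type liver and 848 TPM in Tug1-/- liver. Past 1.5-fold were 3 (18.8%), beside 2.07% of all genes: Marco, Lyz2, which encodes lysozyme (87.7 and 154 TPM, 0.80), and Adgre1, the F4/80 antigen (12.3 and 21.0 TPM, 0.72). Clec4f, which marks Kupffer cells, had 90.8 and 105 TPM (0.21). The monocyte receptors Cx3cr1 (0.326 and 0.403 TPM) and Ccr2 (0.367 and 0.610 TPM) were under the filter, and no listed marker was at 0. Genes of antigen presentation, which macrophages also express, had a median of 0.17 over 19 genes, and the class II genes H2-Ab1 (24 and 40.0 TPM, 0.71) and H2-Eb1 (30.3 and 47.8 TPM, 0.64) were past the limit. The part of macrophage RNA in that result was not tested.

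Markers of other cells gave these values. Sinusoidal endothelium markers had a median log2 ratio of 0.09 over 17 genes and stellate and fibroblast markers one of 0.17 over 14 genes, with none past 1.5-fold in either list. With 2.07% of all genes higher and 1.47% lower past the limit, counts of 0 in lists this short lie near the background. A count of 1 in the lists of 4 and 6 genes below is a larger share than that of all genes. Whether it exceeds chance was not tested. Cholangiocyte markers gave 0.18 over 7 genes. Smooth muscle markers were scarce and gave 0.53 over 4 genes, with the actin gene Acta2 past the limit (2.74 and 5.11 TPM, 0.71). B and plasma cell markers gave -0.03 over 6 genes, with 3 above 0 and 3 below, and the antibody gene Ighm alone was past it (11 and 19.2 TPM, 0.75). Erythroid markers gave a median of -0.00 over 6 genes, and summed to 785 and 793 TPM. Neutrophil markers summed to 4.71 and 6.75 TPM, and T and NK cell markers to 4.93 and 6.74 TPM. Of 9 exocrine pancreas genes listed only Cela1 passed the filter (46.8 and 35.8 TPM), and of 2 skeletal muscle genes only Mylpf did (1.8 TPM in both).

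Several groups with general cell functions stayed close to the median of all genes. None of 77 nuclear subunits of oxidative phosphorylation was past 1.5-fold, and their median log2 ratio was 0.02. The 8 mitochondrially encoded genes counted all had a ratio below 0, between -0.32 and -0.07. Of 81 cytosolic ribosomal protein genes, 80 had a ratio above 0 with a median of 0.12, and Rps4l was the only one past the limit. The 24 genes of the Polycomb complexes, which repress transcription, had a median of -0.01. None of 38 proteasome, 14 mitochondrial biogenesis, 17 p53 target or 16 cell cycle genes passed the limit, which in lists of this size is near the 2.07% and 1.47% of all genes.

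Several of these changes were set beside the other tissues of the series, each from its own libraries, with no test between tissues. Whether the tissues came from the same mice was not given in the labels. Rnf185 had log2 ratios of 0.79 in spleen, 0.88 in eyes, 0.91 in embryonic fibroblasts, 0.92 in prostate and 1.08 in heart, so the liver value of 1.02 lay within the range of the rest. Selenom had 0.49 to 1.08 elsewhere and 0.71 in liver. Morc2a was lowest in prostate (-2.69) and liver (-2.26) and had -1.50 in spleen, -0.64 in eyes, -0.46 in heart and -0.45 in fibroblasts. Rps4l was higher in all 6, from 1.08 in eyes to 3.70 in prostate.

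The median log2 ratio of all genes counted was itself 0.09 in heart, 0.03 in prostate, -0.10 in spleen, -0.10 in eyes and 0.04 in fibroblasts, beside 0.01 in liver, and the list medians that follow are not corrected for it. The heat shock chaperones had medians of 0.38 in heart, 0.43 in prostate and 0.41 in spleen, beside 0.35 in liver, and of 0.10 in eyes and 0.12 in fibroblasts. Glucocorticoid-induced genes had medians of 0.64 in heart, 0.49 in prostate, 0.26 in spleen, 0.21 in eyes and 0.13 in fibroblasts beside 0.73 in liver. Ddit4 had a ratio of 1.17 in heart and at most 0.22 in the other 4. For cholesterol synthesis genes the medians outside liver lay between -0.21 and -0.02, against 0.35 in liver, and Sqle lay between -0.31 and 0.04 there. Alas1 (at most 0.29 elsewhere), Lpin1 (at most 0.50) and G0s2 (-0.54 to 0.68) did not pass 1.5-fold in the liver direction in any of the other 5 tissues.

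**Figure D5:**
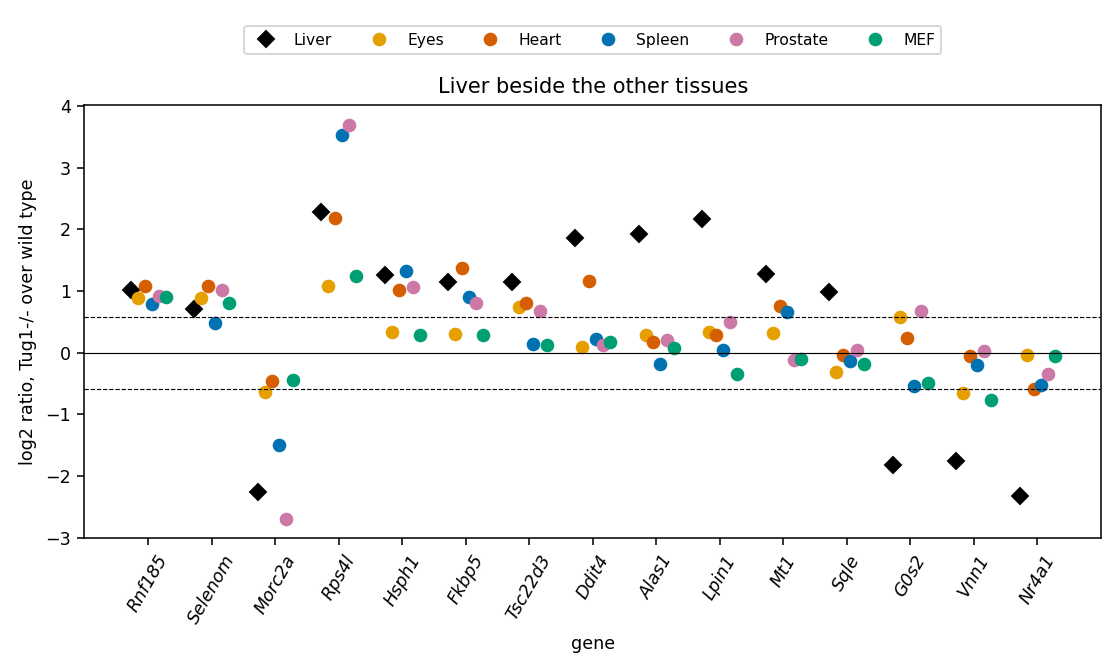
For 15 genes on the horizontal axis, points give the log2 ratio of Tug1-/- over wild-type group means in liver (black diamonds) and in eyes, heart, spleen, prostate and embryonic fibroblasts (MEF, coloured circles), and dashed lines mark 1.5-fold. Rnf185 and Selenom lie between 0.49 and 1.08 in all tissues, and Lpin1, Alas1, Sqle and G0s2 lie outside the lines in liver and nearer 0 in most others.

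Genes past the limit in liver were past it elsewhere more often than all genes counted in both tissues. Of the genes higher in liver and measured at 1 TPM or more in the other tissue, 25.4% were higher past 1.5-fold in prostate (47 of 185), 22.5% in heart (40 of 178), 11.1% in spleen, 10.4% in fibroblasts and 8.91% in eyes, where 0.872% to 2.03% of all genes counted in both were. Of the genes lower in liver, Tug1 left out, 5.00% to 13.5% were lower past it elsewhere, beside 0.455% to 1.04%. The sign alone was often near that of all genes: 82.0% of the genes higher in liver had a ratio above 0 in heart beside 79.5% of all, and 69.5% of the genes lower in liver had one below 0 in eyes beside 69.6% and 75.0% in spleen beside 72.6%. Apart from those, the shares of like sign were 49.7% to 77.8% for the higher genes, beside 27.4% to 62.7%, and 51.2% to 52.9% for the lower genes, beside 20.5% to 37.9%. The genes compared were not matched for expression level.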

How the data were processed

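Libraries were made from polyadenylated RNA with the TruSeq RNA kit v2. Per the labels and the study's methods, the authors used CASAVA 1.8.2, aligned reads with STAR to the mouse genome (GRCm38, mm10), counted them per gene with featureCounts and normalised with DESeq2; genes with under 3 reads in every replicate were left out. Whether counting used strand is not given in the sources used here. The authors deposited 3 usable columns: a mean TPM per genotype and, as a signal, the mean normalised read count of a gene over both genotypes. Columns of the authors' own comparison (fold changes, standard errors, statistics, p-values, a call) were not used. With no values of single livers, none of the planned models for single libraries could be run, and nothing was tested.

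The log2 ratio was log2((Tug1-/- + 1 TPM)/(wild type + 1 TPM)). Genes of at least 1 TPM in either genotype were counted, and 1.5-fold was the limit. Named were Tug1, genes within 1 Mb past the limit, the 15 largest and 15 smallest ratios at 2 TPM or more, the 5 most abundant genes, hepatocyte markers and, of each of 52 lists, up to 4 members past the limit. Other members named were chosen after their values were seen. Members and lists were chosen with earlier results of these data known. Alternatives were other pseudocounts, filters, limits and scalings. Only the step that calls a gene past the limit was run on simulated means, with changes far past the limit planted in well-expressed genes. That run says nothing of weakly expressed genes or of a spread between livers. Work was done in Python with pandas and numpy. Counting error cannot be given, since depth per library is unknown. Some genes are not reported here.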

Additional observations from a re-analysis of the deposited data

How the results depend on the processing

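No paired analysis was possible because expression was given as 1 mean per genotype with no values of single livers, and the authors' own comparison was not used; for the same reason no liver could be left out in turn and no other normalization of counts was run. The counts of genes past the limit moved with the settings on low values. With a pseudocount of 0.1 TPM, 409 genes were higher and 321 lower, and with 5 TPM, 107 and 62. At a mean of at least 5 TPM there were 156 and 111, and at a 2-fold limit 59 and 37. Requiring a mean normalised count of 50 reads, centring, rescaling without the 20 most abundant genes and keeping coding genes alone each left both counts within 1.5 times of 251 and 178. The log2 ratio of Tug1 was -6.55 with a pseudocount of 0.1 TPM, -1.59 with 5 TPM and -4.08 after the rescaling. Near Tug1, Selenom dropped out with a pseudocount of 5 TPM (0.36), at 5 TPM and at 2-fold, which left 1 higher gene. With no filter there were 2 lower genes, the added one being Osbp2 (0.722 and 0.0733 TPM). Of 44 named genes recomputed, none changed sign under any setting run and 41 stayed past 1.5-fold in every setting that kept them, with Gm12991 (-0.54) and Gm26203 (-0.55) the others that did not under a pseudocount of 5 TPM. The median of glucocorticoid-induced genes was 0.99 at 5 TPM or more.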

Other observations

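Small noncoding genes were past 1.5-fold more often than coding genes, from few reads. Of 58 microRNA genes counted, 13 were higher and 9 were lower, of 61 snoRNA genes 8 and 7, and of 24 snRNA genes 2 and 4. All 22 microRNA, all 15 snoRNA and all 6 snRNA genes past the limit had under 50 mean normalised reads. Of 10853 protein-coding genes, 185 were higher and 119 were lower, 18 of them with under 50 reads. Of 226 lincRNA genes, 8 (3.54%) were higher and 9 (3.98%) lower, 5 of them with under 50 reads. The shares of all genes to set beside these counts were 2.07% higher and 1.47% lower.

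Acute phase genes, which the liver secretes in inflammation, had a median log2 ratio of 0.14 over 28 genes, with Cebpd (1.39 and 3.26 TPM, 0.83) among 4 higher and Orm3 (6.81 and 4.04 TPM, -0.63) the only lower gene past the limit, beside 2.07% and 1.47% of all genes. Il1rn, another of the 4, passed the filter only through its Tug1-/- mean (0.909 and 2.03 TPM, 0.67), which leaves 3. Of 23 interferon-stimulated genes none was past it, with a median of 0.12. Of 22 complement genes only Cfp was (18.5 and 30.2 TPM, 0.68), and of 19 antioxidant genes controlled by NRF2 only Hmox1 (19.5 and 35.3 TPM, 0.83). Among clock genes, Nfil3 (18.3 and 11.6 TPM, -0.61) and Bhlhe41 (3.22 and 1.32 TPM, -0.86) were lower and Ciart (8.09 and 13.2 TPM, 0.64) was higher, and Dbp (61.6 and 61.2 TPM) and Per1 (12.2 and 17.6 TPM) lay within 1.5-fold. The time of day at which livers were taken is not given in the labels. Among immediate early genes, Nr4a1 was lower and Gadd45g was higher past the limit, and Fos had 1.83 and 1.11 TPM (-0.42).

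Within 500 kb, 2 other genes were counted around Rps4l and 5 around Gm4737, and none was past 1.5-fold, as few would be at the 2.07% and 1.47% of all genes. Beside Rps4l, Ergic2 had 14.2 and 15 TPM and Ipo8 11.8 and 11.6 TPM, and the neighbours of Gm4737 had log2 ratios from -0.24 to 0.23.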
